A study of Mustela putorius furo with 10 samples.

Results

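The genes described here are those of fatty acid oxidation and lipid breakdown, measured in peripheral blood mononuclear cells (PBMC) of ferrets (Mustela putorius furo) kept in the cold. A list of 57 symbols was taken as given, 47 of them were found on the array through the RefSeq ferret gene name of the probe's target, and 46 were measured among 26303 genes tested in all. Of the 26303, 9276 had a gene symbol. Each target sequence without a symbol was counted as a gene of its own, so that transcript variants can count more than once. Every share of all genes below is over these 26303 unless another number is given. A gene was measured where at least 1 of its probes was well above background on at least 4 of the 10 arrays in the channel that held the animal's RNA. All ferrets were males of 3 months, with free access to food and water, and were anaesthetised with ketamine hydrochloride and medetomidine before the blood was taken. The control group (6 arrays) was kept at 22 °C and the cold group (4 arrays) at 4 °C for 1 week. The labels say that the cold ferrets were housed singly and give no such statement for the controls, so that housing and temperature cannot be told apart where the controls were grouped. Each array held 1 animal's PBMC, isolated on a Ficoll gradient, so the replicates are separate animals. The animal's RNA was labelled with the green dye Cy3 and set against a reference pool labelled with the red dye Cy5, which the labels describe as PBMC mixed with other tissues. Every value below is a log2 ratio of Cy3 to Cy5 unless another scale is named: 0 means the same signal as in the pool, and -1 means that the PBMC signal was at 0.5 of the pool's.

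Fatty acids are released from stored triglyceride by a chain of lipases, bound to coenzyme A by acyl-CoA synthetases, and carried into mitochondria on carnitine. There an acyl-CoA dehydrogenase, a hydratase, a second dehydrogenase and a thiolase shorten the chain in repeated rounds, while peroxisomes take very long, branched and dicarboxylic chains. Blood mononuclear cells use the pathway too: resting and memory lymphocytes and alternatively activated macrophages are known for it, although muscle, liver, heart and brown fat carry far more of its enzymes.

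The labelled cells were checked against marker genes. All 7 measured leukocyte genes of 8 listed were above the pool on every array, with a median control ratio of 0.94. The 3 measured adipocyte genes of 7 listed, ADIPOQ, FABP4 and CIDEC, were below it, with control ratios of -6.47, -6.99 and -2.75. These 3 were nevertheless well above background on all 10 arrays. Between 50.4% and 63.5% of the spots of an array were well above background in Cy3, and between 27% and 64% in Cy5. The reference channel was less even: the median Cy5 intensity lay between 44 and 80 on control arrays and between 48 and 152 on cold arrays (p = 0.0524, exact permutation test, two-sided).

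The pathway's genes were mostly less abundant in PBMC than in the pool. The control mean was below the pool in 37 of the 46 measured genes, against 45.6% of all genes tested, with a median control ratio of -0.30 against 0.03 over all genes. As many as 28 of the 46 were below the pool on every one of the 10 arrays, against 21.5% of all genes, and 2 were above it on every array, against 23.1%. Those 2 were ACSL5 and PLIN3. In Cy5, 12 of the 16 ACSL5 probes but 0 of the 8 PLIN3 probes were well above background on all 10 arrays, so the pool's level was not well measured for PLIN3. These are ratios to a pool with other tissues in it, and not levels that can be ranked between genes.

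The lowest ratios were those of an acyl-CoA synthetase and the lipases. ACSL1, the acyl-CoA synthetase of adipose tissue, liver and heart, had a control ratio of -3.61 ± 0.24 (SD, n = 6). The lipases PNPLA2, MGLL and LIPE came next, at -2.79 ± 0.29, -2.68 ± 0.23 and -2.26 ± 0.24 (SD, n = 6). The thiolase ACAA2 followed at -1.97 ± 0.25, and FABP3, the fatty acid binding protein of heart and skeletal muscle, at -1.92 ± 0.36. In all, 10 measured genes lay under -1, the others being HADH, CRAT, ACADL and ACADSB. ACADL rested on 1 of its 4 probes. At the other end, ACSL5, an acyl-CoA synthetase of the mitochondrial outer membrane and endoplasmic reticulum, had a control ratio of 0.75 ± 0.24. The order of the neighbours was not separated where their spreads overlapped, as for PNPLA2 and MGLL.

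**Figure D1:**
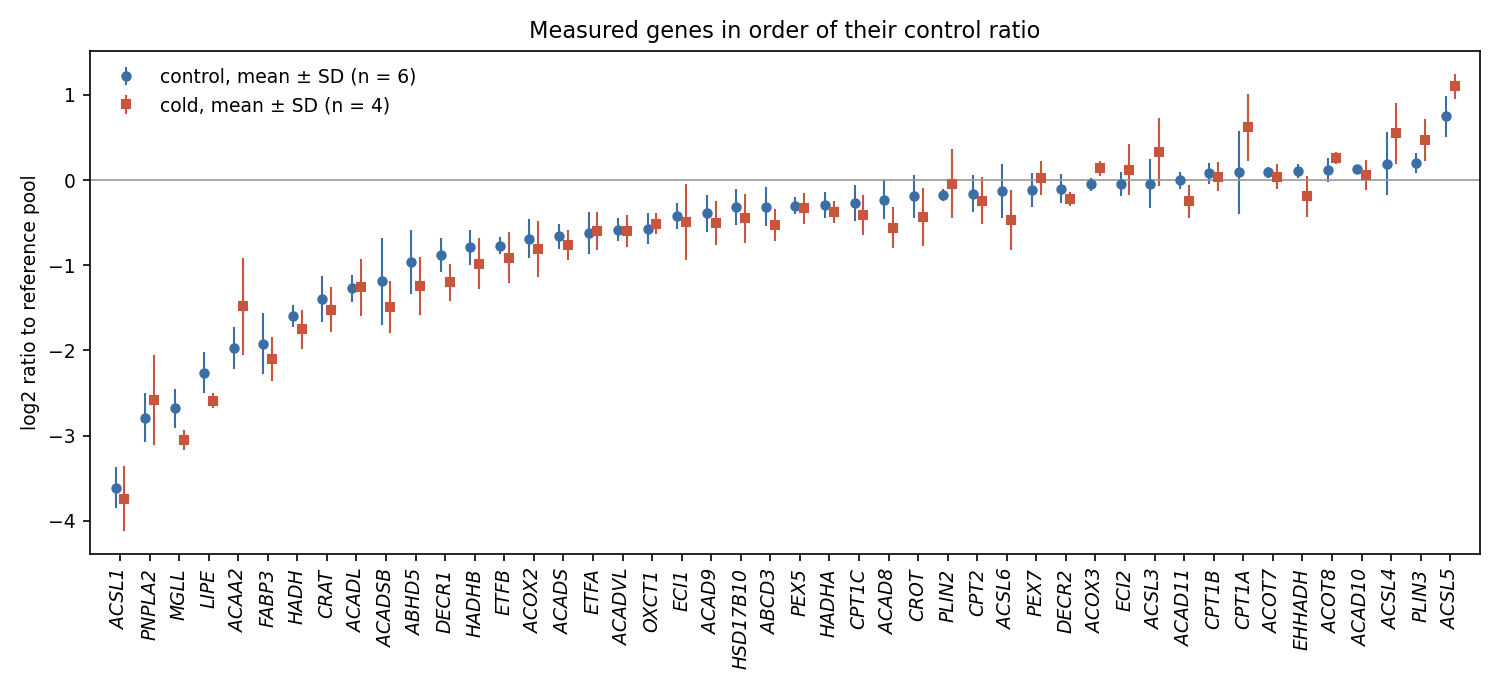
Mean log2 ratio of PBMC to the reference pool (y axis) for each of the 46 measured genes (x axis, in order of the control mean), with circles for control (n = 6) and squares for cold (n = 4) and bars of 1 SD. Most genes lie below the line at 0, from ACSL1 at -3.61 to ACSL5 at 0.75 in control, and cold lies close to control for nearly all.

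Cold and control PBMC differed in these genes by about as much as in genes in general, with a median absolute change of 0.15 on the log2 scale in the 46 genes and of 0.15 over all genes tested. No measured gene of the 46 passed the adjusted threshold of 0.05 (limma, Benjamini-Hochberg over 26303 genes, lowest adjusted p = 0.120), and none of the 26303 genes did either. At an unadjusted limma p under 0.01, the threshold of the study's methods, the count was 0 of 46, where 8.64% of all genes passed (5.21% higher in cold and 3.43% lower). At an unadjusted p under 0.05 the count was 9 of 46, or 19.6%, where 24.7% of all genes passed. Of these 9, 3 were higher in cold and 6 lower, and the background was 12.2% higher and 12.5% lower. In no gene of the 46 were the groups free of overlap, where 5.22% of all genes were. Over the 46 genes, 31 were lower in cold and 15 higher whatever the p, with a median change of -0.09 on the log2 scale, against 52.0% lower and a median of -0.01 over all genes tested. The changes ran from -0.37 to 0.53, and 32 of the 46 lay within 0.25 of 0.

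The standard error of the change was 0.07 to 0.26 on the log2 scale, with a median of 0.13 (0.12 over all genes). The SD between animals had a median of 0.21 in control and 0.25 in cold, against 0.16 and 0.20 over all genes. The 95% interval of each change below gives the range of differences that these arrays allow. PBMC are also a mixture, and fewer cells of a type and less RNA per cell cannot be told apart here.

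**Figure D2:**
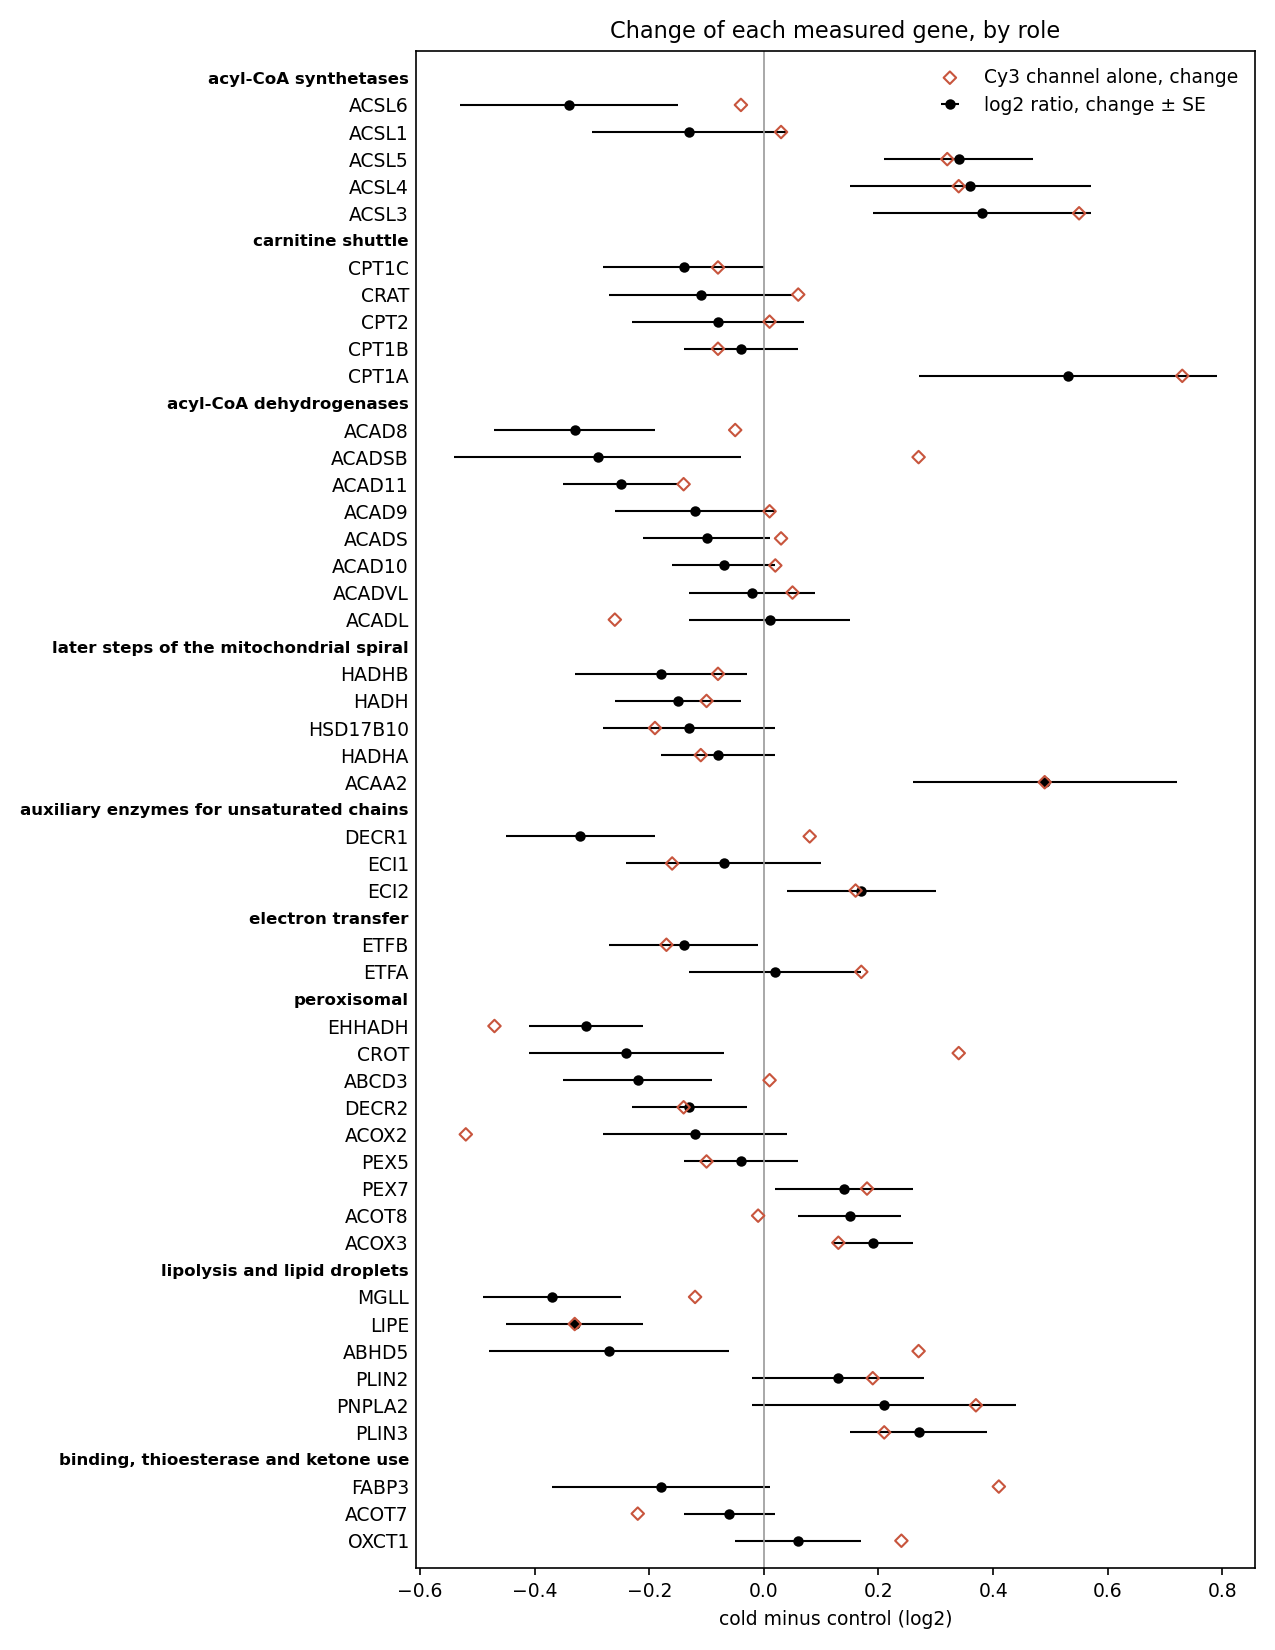
Change from control to cold (x axis, log2) for each of the 46 measured genes (rows, grouped by role). Filled points are the log2 ratio with bars of 1 standard error, and open diamonds are the Cy3 channel taken alone. CPT1A at 0.53 is the highest filled point and MGLL at -0.37 the lowest, and several diamonds, such as that of FABP3 at 0.41, lie on the other side of 0 from their filled point.

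Among the acyl-CoA synthetases, which activate long chains by joining them to coenzyme A, all 5 listed genes were measured, 3 higher and 2 lower in cold, with a median change of 0.34. ACSL5 was the member with an unadjusted p under 0.05. Its control values ran from 0.42 through a median of 0.68 to 1.10, and its cold values were 0.93, 1.20, 1.01 and 1.24. The cold arrays thus lay in the upper range of the controls and past it, and 2 control arrays lay within their range. The change was 0.34 (95% interval 0.06 to 0.63, 1.27-fold, unadjusted limma p = 0.0233, adjusted p = 0.147, exact permutation p = 0.0476, two-sided). All 16 of its probes, from 4 target sequences, were higher in cold. ACSL3 and ACSL4, which serve lipid droplets and arachidonic acid, had changes of 0.38 and 0.36 with standard errors of 0.19 and 0.21, and ACSL1 had one of -0.13.

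Of the carnitine shuttle, all 5 listed genes were measured, 1 higher and 4 lower, with a median change of -0.08. CPT1A encodes the outer-membrane carnitine palmitoyltransferase that sets the rate of entry of long chains into mitochondria. Its control values were -0.41, -0.26, 0.08, 0.40, 0.92 and -0.20, and its cold values were 0.17, 0.56, 1.12 and 0.64. Of the 15 genes plotted by array it had the highest spread between control animals (SD 0.49, n = 6), and control 5 lay above 3 of the 4 cold arrays. The change was 0.53 (95% interval -0.04 to 1.10, 1.45-fold), the highest of the 46, with an unadjusted limma p of 0.0637 and an exact permutation p of 0.110 (two-sided). The change ran from 0.37 without cold 3 to 0.70 without control 5, where the unadjusted limma p was 0.00659. It was 0.22 in the authors' log2 table, and 0.19 relative to the median of all genes when each array was centred on its median in place of loess. All 4 CPT1A probes were higher in cold, by 0.40 to 0.73.

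CPT2, the inner-membrane partner that hands the chain back to coenzyme A, had control values from -0.53 through -0.13 to 0.07, and cold values of -0.30, 0.10, -0.19 and -0.57. Cold 2 and cold 4 lay just past the ends of the control range and the other 2 within it. Its change was -0.08 (95% interval -0.40 to 0.24, exact permutation p = 0.610, two-sided). CPT1B and CPT1C, the muscle and brain forms, had changes of -0.04 and -0.14, and CRAT, which moves short acyl groups, had one of -0.11.

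Among the acyl-CoA dehydrogenases, the first step of each round, 8 of 9 listed genes were measured, 7 lower and 1 higher, with a median change of -0.11. The missing gene was ACADM, the medium-chain enzyme. ACAD11, which takes long chains and 4-hydroxy acids, had control values from -0.13 through 0.00 to 0.13 and cold values of -0.49, -0.19, -0.28 and -0.04. Of the cold arrays, 3 lay below every control array and cold 4 among the controls. The change was -0.25 (95% interval -0.46 to -0.04, unadjusted limma p = 0.0264, adjusted p = 0.155, exact permutation p = 0.0238, two-sided).

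ACAD8, an enzyme of the same family that works in valine breakdown, had control values from -0.61 through -0.16 to -0.02 and cold values of -0.76, -0.22, -0.66 and -0.61. Its lowest control value was that of control 5 and its highest cold value that of cold 2. The change was -0.33 (95% interval -0.64 to -0.03, unadjusted limma p = 0.0359, exact permutation p = 0.0667, two-sided). In Cy5, 0 of the 6 ACAD8 probes kept were well above background on all 10 arrays. Of the enzymes for straight chains, ACADVL (very long) had a change of -0.02, ACADS (short) one of -0.10 and ACADL (long) one of 0.01.

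Of the later steps of the mitochondrial round, 5 of 7 listed genes were measured, 4 lower and 1 higher, with a median change of -0.13 and no unadjusted p under 0.05. ECHS1 and ACAT1 were the 2 not measured. HADHA, the alpha subunit of the trifunctional protein, had control values from -0.48 through -0.31 to -0.05 and cold values of -0.28, -0.24, -0.53 and -0.43, with a change of -0.08 (95% interval -0.29 to 0.14), which was -0.03 without control 2 or cold 3. Cold 3 lay just below the control range and the other 3 within it. Its partner subunit HADHB had a change of -0.18 and HADH, the short-chain hydroxyacyl-CoA dehydrogenase, one of -0.15.

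ACAA2, the thiolase that ends the mitochondrial round, was the gene that was higher. Its control values ran from -2.37 through -1.93 to -1.69, and its cold values were -1.77, -0.74, -1.36 and -2.04. Cold 2 and cold 3 lay above every control array, and the other 2 lay within the control range. The change was 0.49 (95% interval -0.01 to 0.99, 1.40-fold, unadjusted limma p = 0.0536, exact permutation p = 0.0905, two-sided), and both of its target sequences were higher, by 0.46 and 0.52. The change ran from 0.24 without cold 2 to 0.68 without cold 4, and it was 0.06 in the authors' log2 table.

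The 3 auxiliary enzymes for unsaturated chains were all measured, 2 lower and 1 higher. DECR1, the mitochondrial 2,4-dienoyl-CoA reductase, had control values from -1.16 through -0.80 to -0.70, and cold values of -1.53, -1.09, -1.04 and -1.13. Cold 1 was below every control, and the other cold arrays were close to control 4 and control 5. The change was -0.32 (95% interval -0.60 to -0.03, unadjusted limma p = 0.0327, exact permutation p = 0.0524, two-sided), and -0.20 without cold 1. The isomerases ECI1 and ECI2 had changes of -0.07 and 0.17. Of the electron transfer flavoprotein, which passes the electrons to the respiratory chain, the subunits ETFA and ETFB had changes of 0.02 and -0.14, and its dehydrogenase ETFDH was not matched on the array.

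Of the peroxisomal genes, 9 of 12 were measured, 6 lower and 3 higher, with a median change of -0.12. EHHADH, the peroxisomal bifunctional enzyme for the hydratase and dehydrogenase steps, had control values of 0.23, 0.08, 0.06, 0.01, 0.16 and 0.12, all just above 0. In Cy5, 0 of its 16 probes were well above background on all 10 arrays, so the pool's level was not well measured for EHHADH. Its cold values were 0.05, -0.05, -0.46 and -0.32. Cold 1 lay among the controls, and the other 3 cold arrays lay below them all. The change was -0.31 (95% interval -0.53 to -0.08, 1.24-fold, unadjusted limma p = 0.0139, adjusted p = 0.126, exact permutation p = 0.00952, two-sided). The 4 target sequences of EHHADH had changes of -0.42 to -0.24, and 15 of its 16 probes were lower. Within slide position 1 (control 1, 2, 4 and 6, cold 1 and 2) the change was -0.11, and within slide position 2 (control 3 and 5, cold 3 and 4) it was -0.50.

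ACOX3, an acyl-CoA oxidase of branched chains, had control values from -0.15 through -0.05 to 0.08, and cold values of 0.12, 0.03, 0.15 and 0.25. Control 2 alone reached the cold range. The change was 0.19 (95% interval 0.03 to 0.35, 1.14-fold, unadjusted limma p = 0.0270, adjusted p = 0.157, exact permutation p = 0.00952, two-sided), the smallest change among the 9 genes with an unadjusted p under 0.05. ACOX2, the bile acid and branched-chain oxidase, had a change of -0.12, and ABCD3, a carrier of acyl groups across the peroxisomal membrane, one of -0.22. The import receptors PEX5 and PEX7 had changes of -0.04 and 0.14.

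Of the 47 genes on the array, the related carrier ABCD2 was the one that failed the detection rule, with its best probe well above background on 0 arrays, so that no gene lay just outside it. CROT, which attaches medium chains to carnitine for export, lay just inside the rule, with 1 of 8 probes kept, and that probe was well above background on 1 control array and 3 cold arrays. Its change of -0.24 is therefore one of a signal near background. By Cy3 alone the CROT change was 0.34, in the other direction. Since the probe met the Cy3 rule mostly on cold arrays, no test of that value is given. ACAD10, ACSL6 and CPT1B likewise had no probe detected on all 10 arrays, and the other 42 genes had at least 1.

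Of the lipolysis and lipid droplet genes, 6 of 7 were measured, 3 lower and 3 higher, with a median change of -0.07. The 3 lipases that take triglyceride apart in sequence are PNPLA2 (the first fatty acid), LIPE (hormone-sensitive lipase, the second) and MGLL (monoglyceride lipase, the last). MGLL had control values from -2.97 through -2.61 to -2.43 and cold values of -3.20, -2.93, -3.09 and -2.96. Cold 1 and cold 3 were below every control array, and the other 2 were close to control 4 and control 5. The change was -0.37 (95% interval -0.64 to -0.10, 1.29-fold, unadjusted limma p = 0.0117, adjusted p = 0.120, exact permutation p = 0.0286, two-sided), the lowest of the 46. Its 8 probes had changes of -0.85 to -0.19, and 6 of them were well above background on all 10 arrays. With the filter on all 10 arrays the MGLL change was -0.26, and with the median over probes -0.21. It was not the lowest there, since ACAD8 was at -0.36 and -0.31.

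LIPE had control values from -2.54 through -2.24 to -1.98 and cold values of -2.70, -2.50, -2.62 and -2.53. Cold 2 and cold 4 lay within the control range and the other 2 below it. The change was -0.33 (95% interval -0.59 to -0.06, 1.25-fold, unadjusted limma p = 0.0218, exact permutation p = 0.0476, two-sided). PNPLA2 had control values from -3.14 through -2.82 to -2.41 and cold values of -2.89, -2.09, -2.16 and -3.16. Cold 2 and cold 3 lay above the control range, cold 4 just below it and cold 1 within it. The change was 0.21 (95% interval -0.28 to 0.71, exact permutation p = 0.405, two-sided). It ran from 0.05 without cold 2 and 0.07 without cold 3 to 0.41 without cold 4, and without control 3 it was 0.14. ABHD5, the co-activator of PNPLA2, had a change of -0.27 with a standard error of 0.21, and one of 0.27 by Cy3 alone (exact permutation p = 0.0286, two-sided).

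Of the droplet coat proteins, PLIN3 had control values from 0.06 through 0.21 to 0.39, and cold values of 0.69, 0.12, 0.63 and 0.44. Cold 2 lay within the control range and the other 3 above it. The change was 0.27 (95% interval 0.01 to 0.52, 1.20-fold, unadjusted limma p = 0.0407, exact permutation p = 0.0571, two-sided). PLIN2 was tight in control, from -0.33 through -0.15 to -0.14, and spread in cold, at -0.49, 0.27, -0.28 and 0.32, with an SD of 0.07 against 0.40. Its change was 0.13 (95% interval -0.20 to 0.46, exact permutation p = 0.424, two-sided). It was 0.28 without cold 1, 0.21 without cold 3, 0.03 without cold 2 and 0.01 without cold 4.

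Of the remaining genes, FABP3, the thioesterase ACOT7 and the ketone-using enzyme OXCT1 had changes of -0.18, -0.06 and 0.06. The nuclear receptors PPARA and PPARD, which drive many of these genes, were not matched on the array, nor were ACADM, ECHS1, ACAT1, ETFDH, HSD17B4, ACAA1, LIPA and FABP5, and they were not analysed here.

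**Figure D3:**
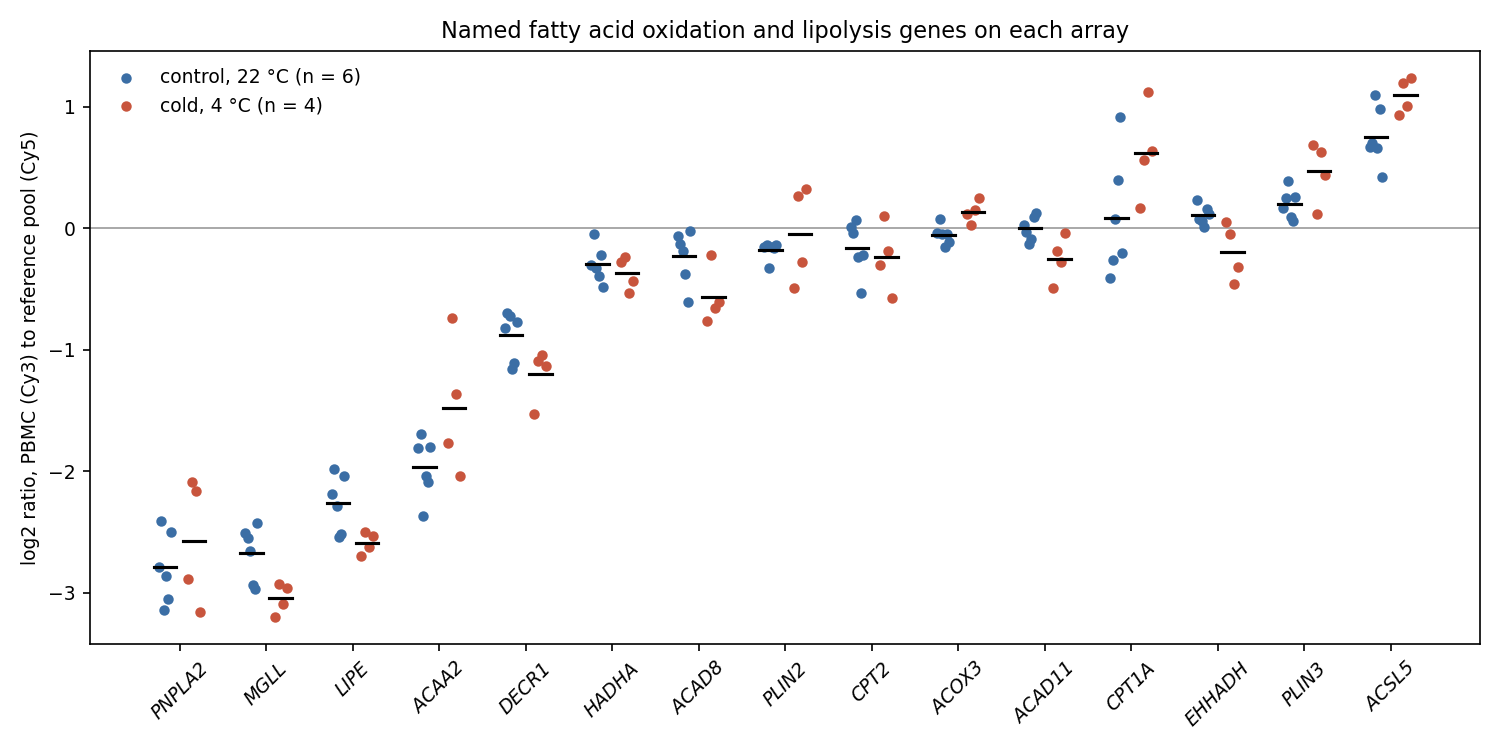
Log2 ratio of PBMC to the reference pool (y axis) on each array for the 15 named genes (x axis, in order of the control mean), with control in blue (n = 6), cold in red (n = 4) and black lines at the group means. In every gene at least 1 array of one group lies within the range of the other, EHHADH and ACOX3 having the lowest exact permutation p of the 15, 0.00952.

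The direction of several changes depended on how the arrays were scaled. With each array centred on its median in place of loess, the median of all genes moved to -0.43, and 42 of the 46 genes were lower in cold, as were 77.1% of all genes. Relative to that median, ACSL5 turned to -0.05, ACAA2 to -0.08, PNPLA2 to -0.43, PLIN2 to -0.01, ACAD11 to 0.17 and ACAD8 to 0.04. With the scanner software's processed signals PLIN3 turned to -0.14. MGLL, EHHADH, LIPE, ACOX3 and CPT1A had the same sign in all 24 alternatives, but not the same size. CPT1A ran from 0.19 to 0.73, EHHADH from -0.76 to -0.11 and MGLL from -0.72 to -0.12. LIPE ran from -0.58 to -0.17 and ACOX3 from 0.10 to 0.25.

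The average ratio of the 46 genes moved with the brightness of the reference channel. The mean of their log2 ratios was -0.57, -0.54, -0.63, -0.75, -0.76 and -0.54 on the control arrays and -0.82, -0.48, -0.70 and -0.68 on the cold arrays. Arrays with a bright Cy5 channel had the lower means, in both groups. Over the 10 arrays the mean ratio and the log2 median Cy5 intensity had a Pearson r of -0.83 (permutation p = 0.00371, adjusted over 2 relations p = 0.00742) and a Spearman rho of -0.76 (permutation p = 0.0145, adjusted p = 0.0291). Without cold 1 and cold 3, the arrays farthest from the median Cy5, r was -0.75. Among the 6 control arrays alone r was -0.89 (exact permutation p = 0.025, adjusted p = 0.05) and rho -0.78 (exact permutation p = 0.0778, adjusted p = 0.156). No correlation is given for the 4 cold arrays, since at least 6 arrays were required, but their mean ratios were successively lower in the order of their median Cy5 intensities, 48, 92, 98 and 152. The mean of the same genes in the Cy3 channel alone had an r of -0.01 (permutation p = 0.986) and a rho of 0.02 with Cy5 brightness. The part of the reference channel in the changes above was not tested.

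**Figure D4:**
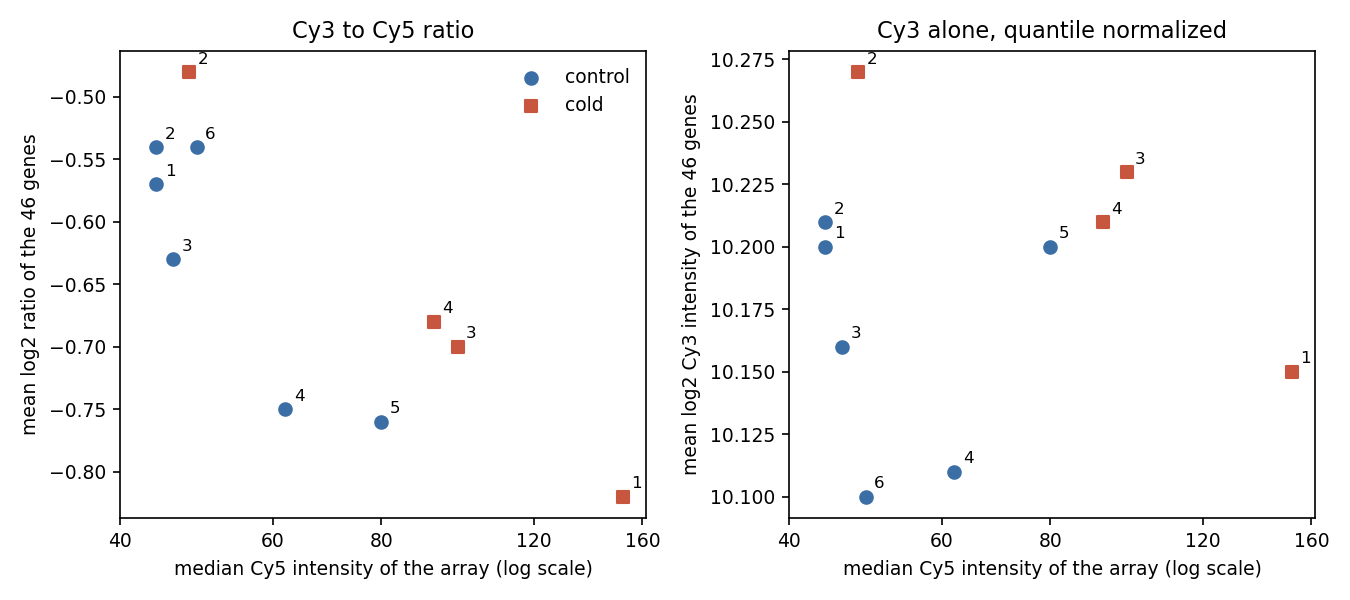
Median Cy5 intensity of each array (x axis, log scale) against the mean over the 46 genes of the log2 ratio (left, y axis) and of the log2 intensity of Cy3 alone after quantile normalization (right, y axis), with circles for control, squares for cold and replicate numbers beside the points. On the left the mean falls from -0.48 on cold 2 to -0.82 on cold 1 as Cy5 brightens, and on the right there is no such slope (r = -0.01).

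The Cy3 channel taken alone, quantile normalized between arrays, gave a different picture for some of the genes. By that measure 20 of the 46 genes were lower in cold (43.5%, against 57.1% of all genes) and 26 higher, and 13 genes that were lower by the ratio were higher by Cy3 alone, with a median change of 0.02 over the 46. At an unadjusted limma p under 0.01 there were 4 of 46, or 8.70%, where 9.84% of all genes passed. These were ACAA2 (0.49) and FABP3 (0.41), higher in cold, and EHHADH (-0.47) and ACOX2 (-0.52), lower in cold. Their exact permutation p values, two-sided, were 0.0143, 0.00476, 0.00952 and 0.0238. FABP3 and ACOX2 are named after their values were seen, and ACOX2 rested on 1 of its 4 probes. None of the 4 passed the adjusted threshold (limma, lowest adjusted p = 0.072), which 2.82% of all genes did. CPT1A was 0.73 higher by Cy3 alone, LIPE -0.33 and ACSL5 0.32, close to or above their ratio values in size, whereas DECR1 went from -0.32 to 0.08, ACAD8 from -0.33 to -0.05 and MGLL from -0.37 to -0.12.

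The gap between both measures was looked at by how scarce a gene was in PBMC relative to the pool. Of the 1691 genes with a control ratio under -1, 81.3% were lower in cold by the ratio, with a median change of -0.48, and 66.4% by Cy3 alone, with a median of -0.09. For the 10 genes of the pathway under -1 the medians were -0.14 and 0.04, and 4 of them were lower by the ratio and higher by Cy3 alone. The other 9 genes that switched in this way were among the 36 with a control ratio from -1 up, of which 66.7% were lower by the ratio and 44.4% by Cy3 alone. Of all 24612 genes from -1 up, 12308 were lower by the ratio and 13904 (56.5%) by Cy3 alone.

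Markers of other cell types also moved with the groups. All 3 measured adipocyte genes were lower in cold, with changes of -0.51 for ADIPOQ, -0.56 for CIDEC and -0.29 for FABP4 (exact permutation p = 0.0333, 0.0429 and 0.0190, two-sided), and by Cy3 alone the changes were -0.34, -0.35 and -0.63. Their mean log2 ratio ran from -5.68 to -5.16 in control and from -6.10 to -5.61 in cold. Of the 6 lipolysis and droplet genes, LIPE, MGLL and ABHD5 were lower on that scale and PNPLA2, PLIN2 and PLIN3 higher. The 8 measured neutrophil genes of 14 listed were all higher in cold (median change 0.82), and their summed level, given as the mean log2 ratio, ran from 0.44 to 1.18 in control and from 1.48 to 1.86 in cold. Of the 8 monocyte genes measured of 12, 7 were higher (median 0.59, mean log2 ratio 0.06 to 0.60 in control and 0.55 to 1.26 in cold), and all 6 platelet genes of 10 were higher (median 0.87, -0.04 to 1.35 and 0.84 to 1.82). Of the 9 T cell genes measured of 14, 8 were lower (median -0.56, 0.08 to 0.39 and -0.74 to 0.10). The medians for the 9 B cell genes of 12, the 5 NK and cytotoxic genes of 10 and the 5 erythroid genes of 12 were -0.10, 0.09 and -0.35. Of the erythroid genes 4 were lower and 1 higher, with a mean log2 ratio from -0.05 to 0.82 in control and from -0.79 to -0.18 in cold. Among them HBM had the lowest change of all genes tested, -2.56 (exact permutation p = 0.00476, two-sided), and ALAS2 one of -1.12. A Ficoll gradient is meant to remove most neutrophils. No marker passed the adjusted threshold of 0.05 in limma. The part of the marker genes' cell types in the changes of the oxidation and lipolysis genes was not tested.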

How the data were processed

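The authors deposited, for 10 two-colour Agilent arrays, the spot intensities of Feature Extraction 10.7.3.1 (medians, local background, processed signals and flags) and a log2 value per target sequence. That deposited log2 table differs from the log2 ratio of the intensities by constants per array and sequence, and the step that set its scale and centring is not given in the sources used here. In limma 3.58.1 (R 4.3.3), median intensities were background-corrected by normexp (offset 50), turned into log2 Cy3/Cy5 and normalized by loess within arrays (span 0.3, 4 iterations). Spots flagged as outliers were left out. Probes with at least a share of 0.5 of spots well above background in Cy3 on at least 4 arrays were averaged per gene, which left 111051 probes and 26303 genes (9276 with a symbol of RefSeq assembly ASM1176430v1.1). The others were single target sequences without a symbol. Two-sided tests were limma (lmFit, eBayes; Benjamini-Hochberg) and exact permutation over 210 splits (smallest p 0.00476). Each array had a slide of its own, and 1 scan day covered them all.

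Members and gene lists were chosen with earlier results of these data known. Genes named were members with an unadjusted p under 0.05 or without overlap (at most 24), a list fixed whatever its values (CPT1A, CPT2, ACADM, HADHA, ACAA2, EHHADH, PPARA, PPARD, PNPLA2, LIPE, MGLL and PLIN2), and up to 6 other pathway genes with an unadjusted p under 0.01. The remaining genes are named for their role, or where a count is small. Alternatives were processed signals, no background subtraction, median centring, Cy3 alone, the deposited table, no filter or one on all 10 arrays, the median over probes, the methods' t-test, array weights, slide position, a replicate block and leaving out each array. The number of arrays limits the precision.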

Additional observations from a re-analysis of the deposited data

Results flagged for a closer look

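Among 42 groups of 4 or 6 arrays (21 named genes in control and in cold), 2 held a single array set apart from the others by Dixon's criterion, where chance gives about 1 in 20 groups. PLIN2, the droplet coat protein, was at -0.33 on control 3, where the next control array was at -0.16. NUDT7, a peroxisomal coenzyme A hydrolase, was at 1.0 on cold 3, where the next cold array was at 0.53. The cause was not tested in either case.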

How the results depend on the processing

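The count of the 46 genes at an unadjusted limma p under 0.01, which was 0 where 8.64% of all genes passed, became 1 without background subtraction (8.19% of all genes), 1 with median centring (4.42%) and 1 with processed signals (5.72%), EHHADH each time. It was 4 with Cy3 alone (9.84%), 1 with no filter (6.95%) and 1 with the methods' t-test (6.56%), ACOX3 both times, and 2 with array weights (2890 genes), EHHADH and MGLL. Leaving out each array in turn gave 0 to 4: 4 without control 5 (12.7%, CPT1A, ACAD8, LIPE and MGLL), 2 without control 4 (7.74%, LIPE and MGLL), 2 without cold 2 (12.9%, ACAD8 and PLIN3), and 1 each without control 3 (6.85%, ACSL5), cold 1 (6.35%, EHHADH) and cold 4 (7.82%, ACAD11). None passed the adjusted threshold. The count without overlap, which was 0 where 5.22% of all genes had none, became 1 with median centring (2.44% of all genes, EHHADH), and 1 with processed signals (4.62%) and 1 with Cy3 alone (7.03%), FABP3 both times. It was 5 of 46, or 10.9%, within slide position 1 and 12 of 46, or 26.1%, within slide position 2, where 23.9% and 37.7% of all genes did not overlap, and 0 to 2 with an array left out, where 1501 to 3415 of all genes did not.

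Over all genes the 2272 at an unadjusted p under 0.01 became 1163 with median centring, 1505 with processed signals, 1093 with the authors' table, and 1021 and 405 within slide positions 1 and 2, which hold fewer arrays. Leaving out arrays gave 1275 to 3386: 1425 without control 1, 1504 without control 2, 1275 without cold 3, 3352 without control 5 and 3386 without cold 2. At an adjusted p under 0.05 the 0 became 741 with Cy3 alone, 115 with the filter on all 10 arrays, 633 without control 5, 1272 without cold 2, 12 without cold 1 and 5 with slide position as a block. Of the genes under 0.01, 60.3% were higher in cold, against 18.5% with median centring, 42.5% with processed signals and 46.2% with the authors' table. The share was 43.6% without control 5 and 92.3% within slide position 2.

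The median change of the 46 genes (-0.09) was -0.15 (without cold 2) to -0.05 (without cold 3) with an array left out. It was 0.02 with Cy3 alone, where 43.5% of the 46 were lower, -0.05 with processed signals, where 58.7% were lower against 61.5% of all genes, and -0.16 with the authors' table, where 60.9% were lower against 49.3%. Median centring moved the median of all genes to -0.43, and relative to it the 46 genes had a median of -0.21. On that relative scale ACSL5 turned to -0.05, ACAD11 to 0.17, ACAD8 to 0.04, ACAA2 to -0.08, PNPLA2 to -0.43, PLIN2 to -0.01 and PEX13 to 0.07. The authors' table turned ACSL5 to -0.03, ACAD11 to 0.03, ACAD8 to 0.04, PNPLA2 to -0.26, PLIN2 to -0.03 and PEX13 to 0.07. Processed signals turned PLIN3 to -0.14, Cy3 alone turned DECR1 to 0.08 and CPT2 to 0.01, slide position 1 turned CPT2 to 0.02 and HADHA to 0.04, and leaving out cold 4 turned CPT2 to 0.03 (range with an array left out -0.20 to 0.03). The causes were not tested. MGLL, EHHADH, LIPE, ACOX3 and CPT1A kept their sign in all 24 alternatives, but not their size. Median centring (relative) gave -0.72 for MGLL, -0.58 for LIPE and 0.19 for CPT1A. Processed signals gave -0.21 for MGLL, -0.19 for LIPE and -0.76 for EHHADH. The authors' table gave -0.62 for MGLL, -0.51 for LIPE, 0.10 for ACOX3 and 0.22 for CPT1A. Among the others, processed signals gave -0.58 for ACAD11, -0.61 for ACAD8, 0.18 for ACSL5 and -0.16 for DECR1, median centring (relative) gave -0.54 for HADHA and 0.52 for PLIN3, and the authors' table gave -0.48 for HADHA. The p values under median centring are those of the changes before the median of all genes was taken off.

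Replicate numbers did not pair the animals: the deviations of same-numbered arrays correlated at -0.301, 0.543, 0.096 and -0.189, and 0 of 4 cold arrays correlated best with their own number. A replicate block gave 1 of the 46 genes at an unadjusted limma p under 0.01 (CPT1A, with a change of 0.67) and 2459 genes (9.35%) in all.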

Other observations

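A wider set of 137 pathway genes outside the list of 57 was looked at by the same rule, of which 88 were measured, 30 higher and 58 lower in cold, with a median change of -0.10. Over all genes tested 52.0% were lower, with a median of -0.01. The groups did not overlap in 3 higher genes and 1 lower gene of the 88, where 5.22% of all genes had no overlap. At an unadjusted limma p under 0.05 there were 6 higher and 22 lower (background 12.2% and 12.5%). At an unadjusted limma p under 0.01 there were 3 higher and 4 lower (background 5.21% and 3.43%), and none passed the adjusted threshold (limma, lowest adjusted p = 0.0736). BDH1, the mitochondrial enzyme that interconverts the ketone bodies, was at -0.34 to 0.11 in control (median 0.03) and at 0.20, 0.78, 0.68 and 0.41 in cold, with no overlap. Its change was 0.57 (95% interval 0.29 to 0.85, unadjusted limma p = 0.00104, exact permutation p = 0.00476, two-sided, the smallest that 210 splits can give), and 0.64 by Cy3 alone. With median centring, relative to the median of all genes, it was 0.23, and it was 0.25 in the authors' table, and in both the unadjusted p was no longer under 0.01, nor was it within either slide position. NUDT7 was at 0.06 to 0.43 in control and at 0.52, 0.53, 1.00 and 0.53 in cold, also with no overlap (change 0.41, exact permutation p = 0.00476). It was no longer under an unadjusted limma p of 0.01 in 8 of 24 alternatives, among them median centring (0.38 relative to all genes), processed signals (0.31), the authors' table (0.31), Cy3 alone (0.43) and leaving out cold 3 (0.29). SLC22A5, the plasma membrane carnitine transporter, was the seventh by p and is named after its values were seen: its control values ran from -0.01 to 0.29 and its cold values were 0.30, 0.46, 0.86 and 0.47 (change 0.37, exact permutation p = 0.00476, and 0.51 by Cy3 alone).

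The 4 lower genes comprised 3 that were scarce relative to the pool and 1, PEX13, with a ratio near 0. In Cy5, 0 of the 3 PEX13 probes kept were well above background on all 10 arrays. PNPLA3, a lipid droplet acyl hydrolase, had a control ratio of -2.79 and a change of -0.72 (exact permutation p = 0.0190). FITM2, which helps form lipid droplets, had a control ratio of -2.03 and a change of -0.77 (exact permutation p = 0.0143), and CAT, the peroxisomal catalase, a control ratio of -2.18 and a change of -0.48 (exact permutation p = 0.0190). By Cy3 alone these changes were -0.40, -0.22 and -0.15. PEX13, a peroxisomal import protein, had a control ratio of -0.10 and a change of -0.31 (exact permutation p = 0.00476), -0.17 by Cy3 alone, with no overlap between the groups by the ratio. Of 24 alternatives, the unadjusted limma p was no longer under 0.01 in 3 for PNPLA3, 6 for FITM2 and 9 for CAT. For PEX13 it was so in 8, and 2 more, median centring and the authors' table, turned its direction (0.07 in both).

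By list, the 11 measured genes of fatty acid uptake and activation of 23 had a median change of 0.00, and the 19 of mitochondrial oxidation and ketone metabolism of 27 one of -0.15. The 20 peroxisomal genes of 30 had a median of -0.11, the 15 regulators of 27 one of -0.17 and the 23 lipolysis and droplet genes of 30 one of -0.14. CD36, the fatty acid translocase of monocytes and platelets, had the highest change of the wider set at 1.32 (standard error 0.47, exact permutation p = 0.0524). Its control values ran from -3.25 to -0.72 and its cold values were -0.89, -1.80, 0.02 and -0.74. It is named after its values were seen, and it moved with the monocyte and platelet markers, whose part in it was not tested.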
